A study of Mus musculus with 7 samples.

Results

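The cells described here are those to which the depositors' cell table gives the annotation "CD4+ T cells (Tfh)", which names T follicular helper cells. There were 1364 such cells among 28644 cells of a mouse glioma data set, and 1302 of them held at least 1500 UMIs (unique molecular identifiers, each counting 1 captured RNA molecule). They were chosen by that annotation alone and were set against the annotations Th1 (1249 cells), Tregs (1058 cells) and naive or early activated CD4 T cells (786 cells). The annotation was checked against its markers, and Cd4 was widely detected, Bcl6 and Tcf7 were found in few cells and Cxcr5 was close to undetected. The near absence of Cxcr5, and shares of Bcl6 and Tcf7 like those of Th1-annotated cells, go against the label, and the genes that led over Th1 were Ccl3 and Ccl4. The cells are therefore called Tfh-annotated cells throughout, and the name stands for the annotation and not for a proven lineage.

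T follicular helper cells are CD4 T cells that enter B cell follicles of lymph nodes and spleen and help B cells to form germinal centres. The transcription factors Bcl6 and Tcf7 (which encodes TCF-1) direct them, the chemokine receptor Cxcr5 guides them to follicles, and they carry Pdcd1 (PD-1) and Icos and secrete the cytokine Il21. Th1 cells depend on Tbx21 (T-bet) and secrete interferon gamma, encoded by Ifng, and regulatory T cells depend on Foxp3. Naive T cells carry the homing and recirculation genes Ccr7, Klf2 and S1pr1.

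CT-2A glioma cells had been injected into the brain of mice aged 8 to 12 weeks. Live cells carrying CD45, CD11b or both were sorted from the dissociated, frozen and thawed tumour-bearing hemisphere, and 1 library of droplet RNA sequencing from the 5-prime end was made per mouse. The 4 KO mice carried Sall1CreERT2 (B6;129-Sall1 tm5(cre/ERT2)Ryn) and floxed Siglece alleles (B6.129P2-Siglece tm1Bcgen). The 3 WT mice carried the floxed Siglece alleles without the driver. Mice of both groups received 2.5 mg tamoxifen per intraperitoneal injection, daily from day 7 to day 21 after tumour injection and every other day from then on. Sall1 is a gene of microglia, so the deletion is driven in microglia and the T cells of KO mice are not themselves targeted by design. Siglece encodes Siglec-E, a receptor for sialic acids on myeloid cells.

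Tfh-annotated cells numbered 75, 301, 281 and 339 in KO replicates 1 to 4, and 18, 221 and 129 in WT replicates 1 to 3. WT replicate 1 stood apart: it held only 105 CD4 T cells, and 60% of them carried the naive annotation. With 18 Tfh-annotated cells it fell below the minimum of 20 cells and enters no level per mouse, difference or expression test below, so these rest on 4 KO and 2 WT mice. Shares of cells pooled over the mice do include its 18 cells. The 6 libraries used held between 547822 (KO replicate 1) and 1359463 (KO replicate 3) UMIs of Tfh-annotated cells. The median was 3740 UMIs per Tfh-annotated cell, 5088 per Th1-annotated cell, 3376.5 per Treg-annotated cell and 2610 per naive-annotated cell. Of the Tfh-annotated cells 39 (2.86%) carried a barcode also seen in another library, against 3.23% of all cells, and none shared it with another Tfh-annotated cell. The transcript of the targeted gene was rare in these cells: Siglece had 3, 13, 10 and 3 UMIs in KO replicates 1 to 4 and 0, 4 and 2 UMIs in WT replicates 1 to 3. No Sall1 UMI was found in any of the 7 libraries, so neither gene checks the genotype here.

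The marker genes given for the label were examined first, by the share of cells with a UMI after every cell had been thinned to 1500 UMIs. Cd4, the coreceptor that defines the lineage, was found in 53.6% of 1302 Tfh-annotated cells (95% exact binomial interval 50.9 to 56.3, which, like the other intervals, covers counting error only). Macrophages of the annotation P5, which should lack Cd4, had it in 0.322% of cells at a median of 6437 UMIs before thinning. The other 3 given markers were found in few cells.

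Bcl6 was found in 4.45% of Tfh-annotated cells, Tcf7 in 3.69% and Cxcr5 in 0.384%, which is 5 cells. In Th1-annotated cells the shares were 4.01%, 4.01% and 0.401%. The macrophages had Bcl6 in 5.09% of cells, Tcf7 in 0.176% and Cxcr5 in 0 of 3417 cells, which allows up to 0.0878% of cells with a UMI at this depth (3 cells of the total). The Bcl6 share of Tfh-annotated cells thus did not exceed that of a myeloid annotation, and Bcl6 is expressed in myeloid cells too. Any of the 3 genes was found in 8.06% of Tfh-annotated and 8.35% of Th1-annotated cells. No cell out of 1302 held all 3 of them, which allows a share of up to 0.230% of cells with UMIs of all 3 at this depth and does not limit the cells that express them.

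Without thinning, Cd4 was found in 73.0%, Bcl6 in 9.68%, Tcf7 in 6.89% and Cxcr5 in 0.660% of the 1364 cells, and 1 cell held Bcl6, Tcf7 and Cxcr5 together. Pdcd1 and Icos were broadly detected at 1500 UMIs, in 62.1% and 58.8% of Tfh-annotated cells, and in 62.0% and 56.0% of Th1-annotated cells. Il21 was found in 3.69% and 4.09%. Foxp3 was found in 0.845% of Tfh-annotated cells and 43.1% of Treg-annotated cells. Cd4 was found in 60.3% of the pooled Th1-annotated cells (57.5 to 63.0) at 1500 UMIs and in 90.6% without thinning. Among Tfh-annotated cells its share at 1500 UMIs ran from 40.5% in WT replicate 3 to 63.5% in WT replicate 2, and its level differed from Th1 by -0.25 ± 0.27, lower in 5 of 6 mice. At 1500 UMIs the shares of Bcl6, Tcf7, Cxcr5, Pdcd1, Icos and Il21 lay within 3 points of each other in the Tfh and Th1 annotations.

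**Figure D1:**
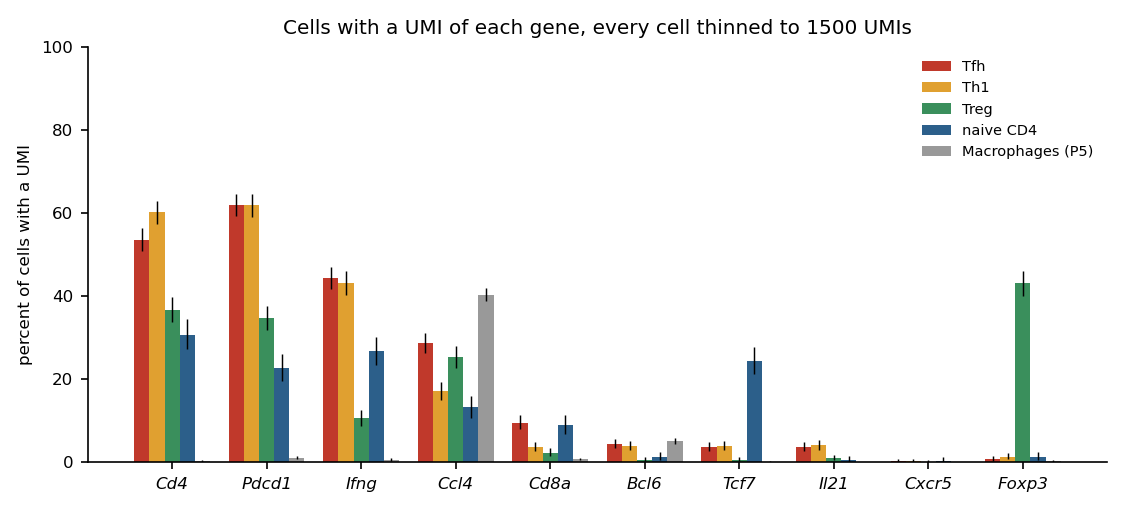
Bars give the percent of cells with a UMI of each gene (vertical axis) in 5 annotations, every cell thinned to 1500 UMIs, with exact 95% binomial intervals that cover counting error only. Cxcr5 lies near 0 in every annotation, Bcl6 and Tcf7 are at like heights in the Tfh and Th1 annotations, and Ccl4 and Cd8a are higher in Tfh (28.7% and 9.60%) than in Th1 (17.1% and 3.69%).

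Levels per mouse are given as CPM (UMIs of a gene per 1000000 UMIs of the annotation in that mouse), in the order of the replicate numbers. The level of Bcl6 in Tfh-annotated cells was 21.9, 14.2, 30.2 and 43.9 CPM in the KO mice and 46.4 and 13.8 CPM in the WT mice, and 7.45, 22.8, 27.5 and 42.3 CPM in the KO mice and 39.1 and 14.3 CPM in the WT mice in Th1-annotated cells. The difference, Tfh minus Th1 on the scale log2(CPM + 5) within each mouse, was 0.15 ± 0.54 (mean ± SD, n = 6 mice), and the ranges of the annotations overlapped. It was 1.58 ± 0.51 against the Treg and 1.11 ± 0.87 against the naive annotation.

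Tcf7 marks follicular helper cells as well as naive and stem-like T cells. Tfh-annotated cells had Tcf7 at 29.2, 19.2, 25.7 and 35.8 CPM in the KO mice and 19.4 and 24.6 CPM in the WT mice and 206, 207, 187 and 183 CPM in the KO mice and 251 and 284 CPM in the WT mice in naive-annotated cells, and no Tfh-annotated value of these 6 mice reached any naive-annotated value. The difference was 0.09 ± 0.76 against Th1, 1.91 ± 0.44 against Treg and -2.88 ± 0.46 against naive-annotated cells. WT replicate 1, left out here, had 185 CPM of Tcf7 in its 18 Tfh-annotated cells, from 22 UMIs. Cxcr5 had 0, 0, 3, 3, 5 and 0 UMIs in the Tfh-annotated cells of the 6 mice and 5, 1, 0, 14, 8 and 0 UMIs in their Th1-annotated cells, too few for a difference.

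Il21, the cytokine by which follicular helper cells act on B cells, was a marker with a higher mean than in each other annotation. Il21 reached 85.8, 29.3, 63.3 and 37.4 CPM in the KO mice and 77.6 and 58.4 CPM in the WT mice in Tfh-annotated cells. In Th1-annotated cells it was found at 25.3, 13.3, 29.0 and 55.7 CPM in the KO mice and 63.2 and 7.65 CPM in the WT mice, and KO replicate 4 was the mouse in which the Th1 value was the higher. The difference from Th1 was 0.93 ± 0.99, below the 2-fold used here, and it was 2.80 ± 1.25 against Treg and 3.08 ± 0.83 against naive-annotated cells. Tbx21, which marks Th1 cells, was no lower in Tfh-annotated than in Th1-annotated cells: the difference was 0.47 ± 0.24, and it was higher in 6 of 6 mice. In Tfh-annotated cells Tbx21 was measured at 141, 120.4, 163 and 139.8 CPM in the KO mice and 153 and 131 CPM in the WT mice.

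**Figure D2:**
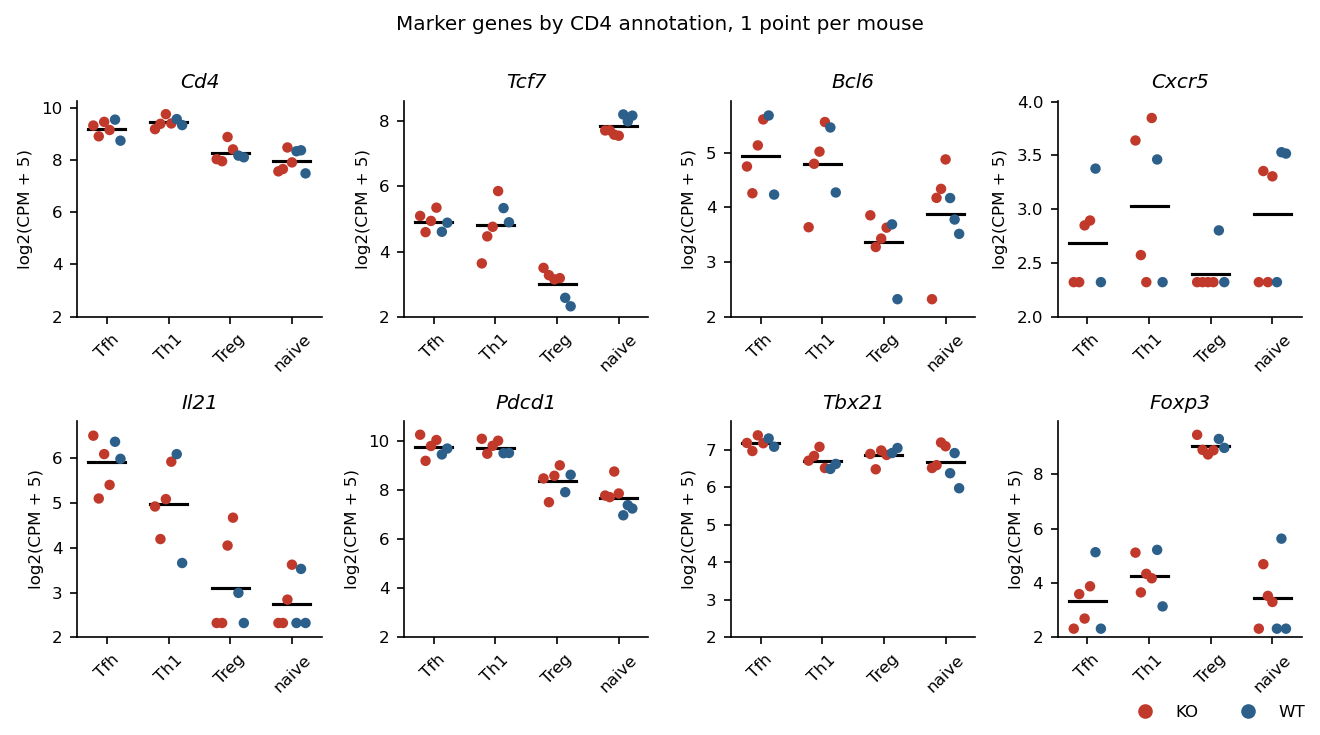
Each point is 1 mouse (red KO, blue WT) with at least 20 cells of the annotation, and the line is the mean; the vertical axis is log2(CPM + 5), so a gene with no UMI lies at the bottom. Bcl6, Tcf7, Cxcr5 and Pdcd1 overlap between Tfh and Th1, Tcf7 is highest in the naive annotation, and Foxp3 in the Treg annotation; WT replicate 1 appears only under naive.

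Genes were then compared between annotations within each mouse. A gene is called higher or lower here when the mean of the 6 differences reached 1 on the log2(CPM + 5) scale (2-fold) with the same sign in every mouse. How the annotations were assigned is not given in the sources used here, and the expression of the same cells may have been used. The comparisons therefore describe the annotation and carry no test. The 3 comparisons share the Tfh-annotated samples.

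Against the Th1 annotation 15 of 8221 genes (0.182%) were higher and 7 (0.0851%) were lower. The median difference over all 8221 genes was -0.01. Correlation of the 2 profiles across genes within a mouse lay between 0.950 and 0.971, given as a description since the profiles share a library. The 15 higher genes held 3 chemokines (Ccl3, Ccl4 and Xcl1), 2 cytotoxic effectors (Prf1 and Gzmb), both CD8 coreceptor chains and 8 other genes.

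Ccl3 and Ccl4, chemokines that attract leukocytes, differed most. The level of Ccl3 in Tfh-annotated cells was 4119.9, 743, 1040.1 and 337 CPM in the KO mice and 1192 and 1012 CPM in the WT mice, against 207, 136, 105 and 77.2 CPM in the KO mice and 73.7 and 81.3 CPM in the WT mice in Th1-annotated cells. Every Tfh-annotated value lay above every Th1-annotated value, and the difference was 3.25 ± 0.87. Tfh-annotated cells had Ccl4 at 9715, 2488, 3260.1 and 1105 CPM in the KO mice and 2944 and 3484 CPM in the WT mice, and 823, 275, 559 and 246 CPM in the KO mice and 257 and 300.4 CPM in the WT mice in Th1-annotated cells, a difference of 3.07 ± 0.59. In Tfh-annotated cells KO replicate 1 was the highest mouse and KO replicate 4 the lowest for both chemokines. Xcl1, the chemokine that attracts Xcr1-bearing dendritic cells, had 153, 645, 99.3 and 301 CPM in the KO mice and 292 and 417 CPM in the WT mice in Tfh-annotated cells and 79.0, 303, 70.2 and 98.6 CPM in the KO mice and 221 and 18.2 CPM in the WT mice in Th1-annotated cells. Its ranges overlapped between the annotations, and the difference within mice was 1.43 ± 1.41.

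Prf1 (perforin) and Gzmb (granzyme B) are the killing proteins of cytotoxic granules. Prf1 reached 367, 69.8, 105 and 74.8 CPM in the KO mice and 77.6 and 274 CPM in the WT mice in Tfh-annotated cells, and the difference from Th1-annotated cells was 1.22 ± 0.80. In Tfh-annotated cells Gzmb was measured at 681, 189, 119 and 156 CPM in the KO mice and 130.4 and 1122 CPM in the WT mice, with a difference of 1.51 ± 0.42. KO replicate 1 and WT replicate 3 were high for both genes, in Tfh-annotated and in Th1-annotated cells. The chosen cytotoxic list had 4 of 10 measured members higher (Gzmb, Prf1, Ccl3 and Ccl4), none lower and a median of 0.99. Over all genes 0.182% were higher and 0.0851% lower, with a median of -0.01.

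Egr3, a transcription factor induced by T cell receptor signalling, was higher by 1.30 ± 0.73, from 92 UMIs in all in Tfh-annotated cells and 28 UMIs in Th1-annotated cells of the 7 mice. Of the 15 measured genes of early activation, Egr3 alone reached 2-fold, and their median was 0.48. Over all genes 0.182% were higher and 0.0851% lower than in Th1, with a median of -0.01. Nr4a1, Nr4a2 and Nr4a3, nuclear receptors induced by the same signal, differed by 0.68 ± 0.34, 0.62 ± 0.27 and 0.73 ± 0.46, each in the same direction in 6 of 6 mice. The 16 dissociation stress genes also had a median above 0, 0.32, and their part in these differences was not tested. Kdm6b, a histone demethylase, was higher by 1.09 ± 0.60. Calca, which encodes calcitonin gene-related peptide, was higher by 2.10 ± 1.44, with 84.0, 29.3, 3.68 and 11.4 CPM in the KO mice and 3.23 and 46.1 CPM in the WT mice in Tfh-annotated cells and at most 0.957 CPM in Th1-annotated cells. The other genes that were higher were Itga1, Krt83, Ly6c2, Cd7 and Gramd3, at 1.01 to 1.06.

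Ccr6, a chemokine receptor of Th17 cells among others, was lower than in the Th1 annotation. The level of Ccr6 in Tfh-annotated cells was 1.83, 1.01, 4.41 and 13.8 CPM in the KO mice and 14.0 and 10.8 CPM in the WT mice, against 10.4, 15.2, 30.5 and 53.7 CPM in the KO mice and 43.6 and 47.8 CPM in the WT mice, a difference of -1.60 ± 0.28. Penk, the precursor of enkephalin peptides, had 575, 260.0, 492 and 616 CPM in the KO mice and 703 and 510.5 CPM in the WT mice in Tfh-annotated and 1029, 616, 1561 and 1096 CPM in the KO mice and 1939 and 1307 CPM in the WT mice in Th1-annotated cells, a difference of -1.22 ± 0.34. Tff1, a secreted trefoil peptide, differed by -1.66 ± 0.37. Penk and Tff1 were higher in Tfh-annotated than in Treg-annotated cells, by 1.75 ± 0.81 and 1.79 ± 0.23, so the Tfh-annotated value lay between those of the Th1 and Treg annotations. Bdh2, Ntrk3, Bace2 and Pla2g4f were also lower, at -1.37 to -1.02.

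**Figure D3:**
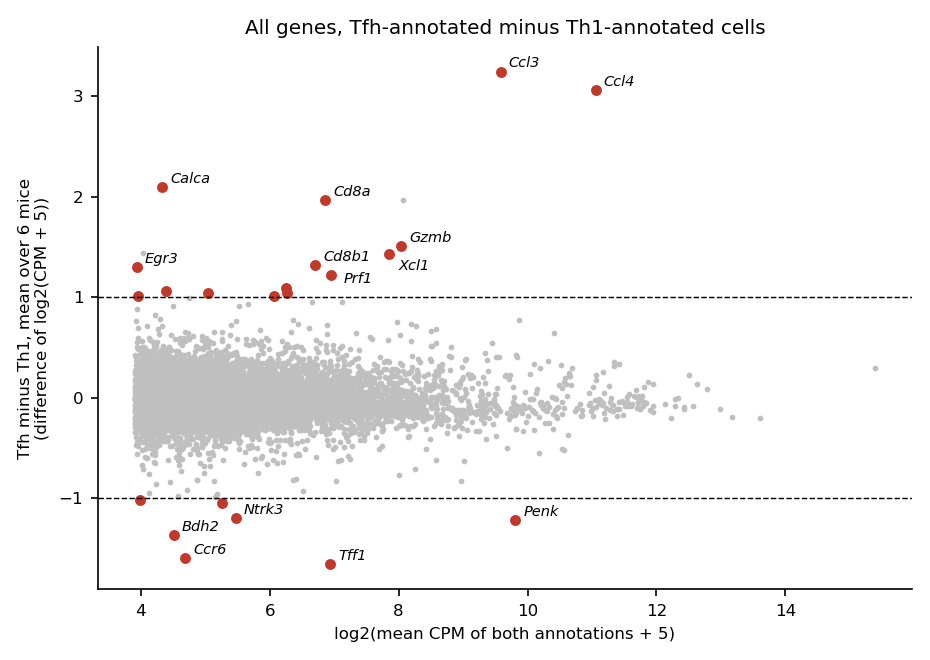
Each point is 1 of 8221 genes, placed by its mean level in the Tfh and Th1 annotations (horizontal axis, log2 of CPM + 5) and by the mean over 6 mice of Tfh minus Th1 (vertical axis). Red points are the 22 genes past 2-fold (dashed lines) in the same direction in every mouse; Ccl3 at 3.25 and Ccl4 at 3.07 stand apart from all others.

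Cd8a and Cd8b1, the chains of the CD8 coreceptor, were among the genes that were higher. Tfh-annotated cells had Cd8a at 168, 125, 212 and 233 CPM in the KO mice and 36.7 and 288 CPM in the WT mice, against 19.4, 70.4, 76.3 and 51.0 CPM in the KO mice and 3.01 and 54.5 CPM in the WT mice in Th1-annotated cells, and the differences were 1.97 ± 0.74 for Cd8a and 1.32 ± 0.55 for Cd8b1. WT replicate 2 was the lowest mouse in both annotations. At 1500 UMIs, Cd8a was found in 9.60% of Tfh-annotated cells and 3.69% of Th1-annotated cells, and in 0.761% of the macrophages. Of the 125 Tfh-annotated cells with a Cd8a UMI 13.6% also had a Cd4 UMI, against 57.9% of the 1177 cells without one.

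All cells with a UMI of Cd8a or Cd8b1 were therefore left out of all 4 annotations as an alternative chosen after these values were seen. They were 266 of the Tfh-annotated cells (19.5%, from 6.79% in WT replicate 2 to 30.6% in KO replicate 3 among the 6 mice) and 206 of the Th1-annotated (16.5%), 131 of the Treg-annotated (12.4%) and 163 of the naive-annotated cells (20.7%), so such cells were as frequent under the naive annotation. Without them 7 genes were higher and 5 lower than in Th1, and 10 of these 12 were among the 22 above. Ccl3 was still higher by 3.07 ± 1.25 and Ccl4 by 2.85 ± 0.69, each in 6 of 6 mice. Calca, Kdm6b, Egr3, Krt83, Ccr6, Tff1, Bdh2 and Ntrk3 also stayed past the 2-fold rule. The call ended for Gzmb (0.35 ± 0.77), Prf1 (0.37 ± 0.76, higher in 3 mice and lower in 3), Xcl1 (0.62 ± 0.94), Ly6c2 (0.54 ± 0.73) and Penk (-0.89 ± 0.85), and Cd7 fell below the filter. Itga1 (0.95), Gramd3 (0.89), Bace2 (-0.96) and Pla2g4f (-0.95) also lost the call but kept their direction in 6 of 6 mice, just short of 2-fold. All 4 differences were smaller without these cells, those of Gzmb and Prf1 by more than those of Ccl3 and Ccl4.

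Macrophages express Ccl3 and Ccl4 (26.7% and 40.4% of the cells annotated P5 at 1500 UMIs), so the myeloid markers are given beside them. All 12 markers were measured, none was at 0, and their summed level was 976 to 2788 CPM in Tfh-annotated and 923 to 2468 CPM in Th1-annotated cells of the 6 mice. No myeloid marker passed the 2-fold rule. With 0.182% of all genes higher and 0.0851% lower than in Th1, this says nothing particular about them. Their median difference from Th1 was 0.31 beside -0.01 over all genes, that is, higher in Tfh-annotated cells. Against Treg and naive-annotated cells the median of the myeloid markers was -0.26 and -0.55, that is, lower in Tfh-annotated cells. Over all genes it was -0.02 and 0.12 there. Microglial markers summed to 89.2 to 132 CPM in Tfh-annotated and 69.5 to 136 CPM in Th1-annotated cells, with Sall1 at 0. Dendritic cell markers, with 1 to 4 of 8 at 0 in a mouse, summed to 411 to 1376 CPM in Tfh-annotated and 408 to 1142 CPM in Th1-annotated cells and were higher in Tfh-annotated cells in 6 of 6 mice. Of the 8 listed gamma-delta T cell markers 5 were in the matrix under the listed symbol, with 3 or 4 at 0 in a mouse. These markers summed to 32.3 to 93.1 CPM in Tfh-annotated and 10.5 to 53.7 CPM in Th1-annotated cells. The sum was higher in Tfh-annotated cells in 6 of 6 mice. The gamma chain gene Trgc1 is in the matrix but not on the list, so its UMIs are not in these sums. B cell markers summed to 20.1 to 258 CPM and 15.3 to 231 CPM, and NK cell markers to 58.4 to 173 CPM and 69.8 to 183 CPM, with 2 to 6 of 9 and 0 to 5 of 7 markers at 0 in a mouse. The part of free RNA or doublets in these levels was not tested.

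Against the Treg annotation 180 of 8324 genes (2.16%) were higher and 224 (2.69%) lower, with a median over all genes of -0.02. The Treg list had 13 of 19 measured members lower and 1, Nrp1, higher. Foxp3 was lower by -5.72 ± 1.10, with 0, 7.08, 1.47 and 9.75 CPM in the KO mice and 30.2 and 0 CPM in the WT mice in Tfh-annotated and 699, 475, 422 and 469.6 CPM in the KO mice and 629 and 499.5 CPM in the WT mice in Treg-annotated cells. The receptor Klrg1 (-4.17 ± 0.62), the transcription factor Ikzf2 (-3.67 ± 0.72) and Lrrc32 (-3.35 ± 0.92), which presents latent TGF-beta, were among the 8 most strongly lowered genes. The others were Frmd5, Rln3, Rapsn and Gm6637. Icos was not higher in Tfh-annotated than in Treg-annotated cells: the difference was -0.94 ± 0.31, and no value of one annotation reached the range of the other.

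The 8 genes highest over Treg were Ccl1, Xcl1, Csf2, Nrgn, Klrd1, Trbv13-1, Tnfsf11 and Ifng, by 3.73 to 5.83. Ccl1 is the ligand of the receptor Ccr8, which tumour Tregs carry, Csf2 encodes GM-CSF, and Tnfsf11 encodes RANKL. Ccl1 reached 871, 1161, 541 and 115 CPM in the KO mice and 1191 and 2672 CPM in the WT mice in Tfh-annotated cells, against at most 53.2 CPM in Treg-annotated cells. In Tfh-annotated cells Ifng was measured at 2351, 1401, 1270.3 and 485 CPM in the KO mice and 2089 and 2728 CPM in the WT mice, and 91.7, 156, 157 and 110.1 CPM in the KO mice and 47.0 and 138 CPM in the WT mice in Treg-annotated cells, a difference of 3.73 ± 1.20. KO replicate 4 was the lowest mouse for Ccl1 and Ifng alike. Of the Ifng UMIs 25.7% lay in values that were not whole numbers, so its counting is uncertain to that extent. Against Th1, Ifng differed by 0.64 ± 0.77 and was not past the 2-fold rule.

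Of the 6 listed follicular helper cytokines 3 had the mean of 10 CPM needed. All 3 were higher than in Tregs: Il21, Tnfsf8 by 3.15 ± 1.26 and Tnfsf11 by 3.77 ± 0.95. Their level in Tfh-annotated cells can by itself bring them past that mean, so they do not stand for the list. Among the receptors and costimulators of follicular helper cells 4 of 15 measured were higher (Pdcd1, Cd200, Sh2d1a and Cd40lg) and 2 lower (Izumo1r, the folate receptor 4, and Il6st). These counts stand beside 2.16% of all genes higher and 2.69% lower than in the Treg annotation. Cd40lg encodes the CD40 ligand through which helper cells activate B cells. The level of Cd40lg in Tfh-annotated cells was 117, 110.3, 118 and 81.3 CPM in the KO mice and 169 and 93.8 CPM in the WT mice, and 0, 12.5, 11.6 and 14.0 CPM in the KO mice and 1.98 and 3.54 CPM in the WT mice in Treg-annotated cells. Of the transcription factors Bcl6 and Tcf7 were higher, and Maf was lower by -1.81 ± 0.34. The cytotoxic list had 6 of 10 measured members higher (Gzma, Gzmk, Prf1, Ccl3, Ccl4 and Klrd1), a median of 1.50 and 1 member lower, Gzmb, by -2.44 ± 1.15. Cd8a and Cd8b1 were higher too (median 2.60), as were the NK receptors Klre1 and Klri2 (median 2.60) and the gamma-delta chain Trgv2 (2.58). Of the NK markers 2 of 7, and of the gamma-delta markers 1 of 8, had the mean of 10 CPM needed. A gene high in Tfh-annotated cells can reach it by that level, so these genes do not stand for their lists. Klre1 and Klri2 were also higher than in naive-annotated cells (median 1.75). Without cells with CD8 transcripts Prf1 differed from Treg by 0.43 ± 1.32, and the part of the NK and gamma-delta markers was not tested. Of the Th1 list 7 of 19 were higher, with Tnf at 1.75 ± 0.37 and the interleukin-12 receptor chain Il12rb2 at 1.15 ± 0.62 beside Ifng, and 3 were lower.

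Against the naive annotation 310 of 8200 genes (3.78%) were higher and 141 (1.72%) lower, with a median over all genes of 0.12. Of the list of quiescence and recirculation genes 8 of 11 measured members were lower, among them Lef1, Tcf7, Klf2, S1pr1, Il7r, Foxp1 and Bach2. Klf2, the transcription factor that maintains S1pr1, differed by -4.01 ± 0.57, and S1pr1, the receptor for exit from tissue, by -2.93 ± 0.38. Tfh-annotated cells had Klf2 at 73.0, 107, 126 and 119 CPM in the KO mice and 103 and 166 CPM in the WT mice, against 2684, 1649.7, 1449.6 and 1896 CPM in the KO mice and 1683 and 2224 CPM in the WT mice, and no value overlapped. Klf3, Id3, Gm2682, Trgc1 and Pde2a completed the 8 most lowered genes, at -2.70 to -2.26. Of these, Trgc1 is a gene of the gamma chain of the T cell receptor. Ccr7, which guides T cells to lymph nodes, is on the same list and was higher by 1.96 ± 1.12. Dissociation stress genes moved with this comparison: their median was -0.80 beside 0.12 over all genes, and 4 of 16 were lower, namely Fos (by -1.53 ± 0.62), Jun, Dnajb1 and Zfp36. The interferon response list had 4 of 31 measured members lower and none higher, and the Th1 list 5 of 19 higher and 3 lower. Whether dissociation had a part in these differences was not tested.

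Higher over naive were Ccl1, Penk, Ccl3, Nrgn, Ccl4, Dusp14, Csf2 and Xcl1, by 3.76 to 6.35. Ccl1 was 1092 CPM on average in Tfh-annotated and 6.45 CPM in naive-annotated cells. Of the inhibitory receptors of exhausted T cells 6 of 10 measured were higher (Pdcd1, Lag3, Tigit, Havcr2, Ctla4 and Entpd1). Pdcd1, which encodes PD-1, had 1232, 586, 894 and 1059.6 CPM in the KO mice and 703 and 832 CPM in the WT mice in Tfh-annotated and 216, 207, 432 and 229.6 CPM in the KO mice and 164 and 148 CPM in the WT mice in naive-annotated cells, and the difference was 1.95 ± 0.57. Among follicular helper transcription factors Bcl6, Irf4, Stat3 and Nfatc1 were higher and Tcf7, Lef1, Id3 and Bach2 lower, 4 of 13 measured in each direction. Over all genes 3.78% were higher and 1.72% lower than in the naive annotation. KO replicate 1 held only 29 naive-annotated cells.

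Of the lists of follicular helper genes 0 of 13 measured transcription factors, 0 of 14 receptors and costimulators and 0 of 3 cytokines were called against Th1. With 0.182% of all genes higher and 0.0851% lower, these zeros say nothing particular about the lists, and without KO replicate 4 Il21 was called higher. Their medians were 0.06, -0.15 and -0.18 beside -0.01 over all genes. Dissociation stress genes had a median of 0.32 with 0 of 16 called, which is given beside the cytotoxic list since both medians lay above 0; their part in each other was not tested. The 19 Th1 genes had a median of 0.13, and Ly6c2 was the member past 2-fold.

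**Figure D4:**
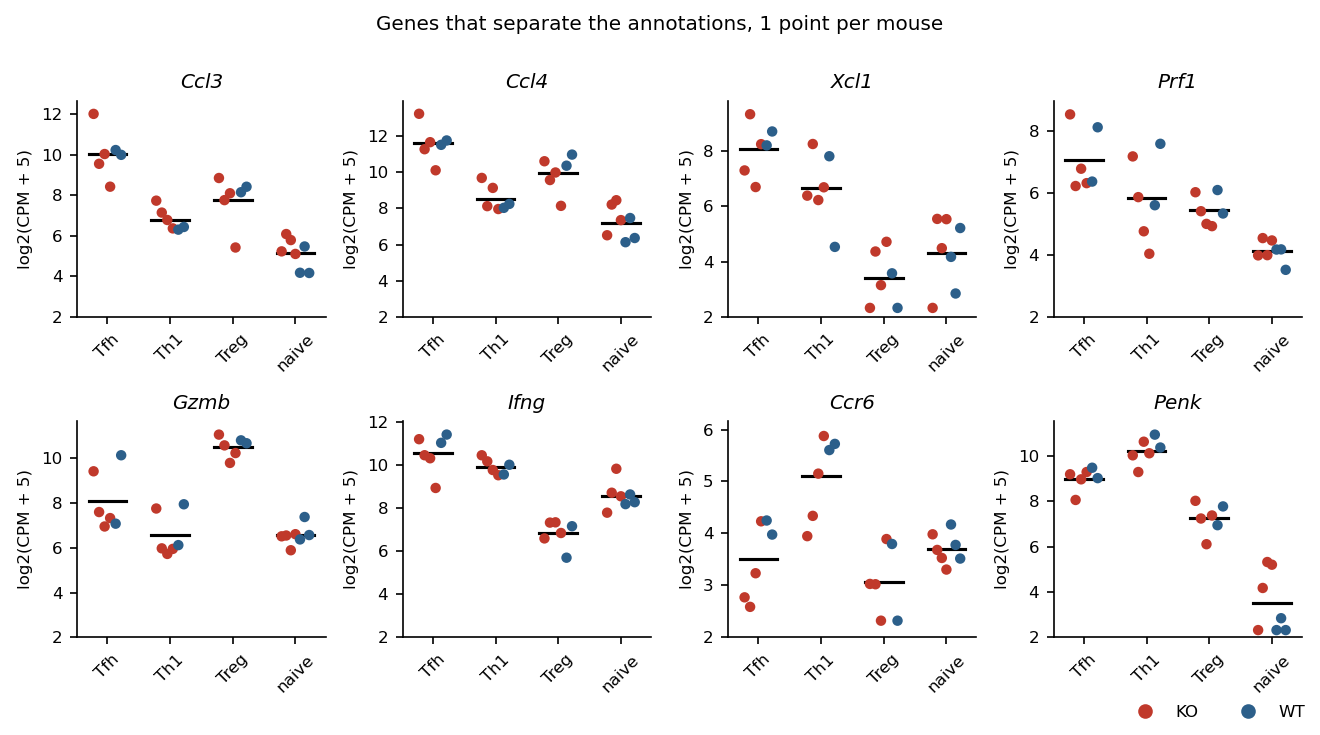
Each point is 1 mouse (red KO, blue WT) with at least 20 cells of the annotation, the line is the mean, and the vertical axis is log2(CPM + 5). Ccl3 and Ccl4 are highest under Tfh in every mouse, Gzmb is highest under Treg, and the means of Ccr6 and Penk are highest under Th1; WT replicate 1 appears only under naive.

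Of 7861 genes measured against all 3 annotations, 4 were higher than in each of them and 0 were lower: Ccl3, Ccl4, Xcl1 and Prf1. The differences from Th1, Treg and naive-annotated cells were 3.25, 2.26 and 4.73 for Ccl3, 3.07, 1.65 and 4.21 for Ccl4, 1.43, 4.68 and 3.76 for Xcl1, and 1.22, 1.59 and 2.95 for Prf1. Without cells that held CD8 transcripts Ccl3 and Ccl4 remained past the rule in all 3 comparisons. Without WT replicate 3 Xcl1 was lost, and without KO replicate 4 Il21 was also higher than in all 3 annotations, which made 5 genes. With every cell thinned to 1500 UMIs the genes were Ccl3, Ccl4 and Slc35a5, and against Th1 alone 15 genes were higher and 16 lower in place of 15 and 7. Only 12 of the 22 genes named above were among those 31. Ccl3, Ccl4, Cd8a, Cd8b1, Gzmb, Ccr6, Tff1, Penk and Bdh2 stayed, and the call ended for Xcl1, Prf1, Egr3, Calca, Ntrk3, Bace2 and Pla2g4f, among others.

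Since these 4 genes were higher than in each compared annotation, the 250 bases before the start of each were looked up in RefSeq (GRCm38.p6, which corresponds to mm10), and 3 had an entry: Ccl3 at chr11:83649379-83649628 and Xcl1 at chr1:164935523-164935772, on the minus strand, and Prf1 at chr10:61297586-61297835, on the plus strand. Capitals mark the core bound by NFAT, the factors that T cell receptor signalling activates, spelled GGAAA on one strand and TTTCC on the other.
Ccl3: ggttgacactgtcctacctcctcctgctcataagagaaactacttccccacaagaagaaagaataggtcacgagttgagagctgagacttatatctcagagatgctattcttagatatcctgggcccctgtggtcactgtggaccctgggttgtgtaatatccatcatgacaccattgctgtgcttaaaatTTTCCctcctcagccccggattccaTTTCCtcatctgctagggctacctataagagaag
Xcl1: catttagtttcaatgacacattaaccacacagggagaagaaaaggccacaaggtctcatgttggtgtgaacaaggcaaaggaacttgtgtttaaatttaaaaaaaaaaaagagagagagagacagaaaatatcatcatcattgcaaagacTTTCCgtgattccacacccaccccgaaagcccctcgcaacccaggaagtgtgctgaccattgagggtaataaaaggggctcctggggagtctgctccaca
Prf1: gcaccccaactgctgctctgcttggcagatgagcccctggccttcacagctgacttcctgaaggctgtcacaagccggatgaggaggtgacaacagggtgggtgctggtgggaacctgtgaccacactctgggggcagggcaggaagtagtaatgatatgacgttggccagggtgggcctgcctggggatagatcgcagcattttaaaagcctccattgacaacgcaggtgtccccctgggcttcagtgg
Ccl4 is named only. The core was found 2 times before Ccl3, 59 and 34 bases before the start, 1 time before Xcl1, 100 bases before it, and 0 times before Prf1. Of 32851 promoters of the same length 55.6% held it at least 1 time and 21.4% at least 2 times, so such matches are common. The AP-1 motif TGANTCA was in none of the 3, against 6.75% of promoters. A match is a description of the letters and not evidence of binding.

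Detection of the leading genes within the Tfh annotation was then examined per cell, where a cell without a UMI is not shown to lack the transcript. At 1500 UMIs Ifng was found in 44.4%, Ccl4 in 28.7%, Ccl3 in 17.6% and Prf1 in 6.84% of the 1302 cells, and at 3000 UMIs the shares were 60.6%, 38.6%, 25.1% and 11.7% of 913 cells. At 1500 UMIs naive-annotated cells had Ccl4 in 13.3% and Ccl3 in 4.71%, and Treg-annotated cells in 25.4% and 10.8%. Cells annotated as precursor-exhausted CD8 T cells had Ccl4 in 40.4% and Ccl3 in 17.0%, so detection of these chemokines was not limited to the Tfh annotation. Of the 374 cells with a Ccl4 UMI 50.5% also had Ccl3, against 4.31% of the 928 cells without. Ifng was found in 66.3% and 35.6% of these cells, Prf1 in 18.7% and 2.05%, and Cd8a in 19.5% and 5.60%. Bcl6 did not follow this pattern, at 3.48% and 4.85%, nor did Tcf7, at 2.67% and 4.09%. Il21 was found in 7.49% of cells with Ccl4 and 2.16% of those without. Bcl6 and Il21 were found together in 1 cell and Bcl6 and Tcf7 in 5 cells. The depositors' phases put 73.5% of Tfh-annotated cells in G1, 19.2% in S and 7.33% in G2/M.

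T cell receptor beta variable genes of the cells were uneven. Trbv13-1 took the largest part of the Trbv UMIs of Tfh-annotated cells in 5 of 6 mice, with 43.1%, 28.5% and 17.5% in KO replicates 1 to 3 and 36.5% and 22.1% in WT replicates 2 and 3. In KO replicate 4 Trbv15 led with 17.3%, and Trbv13-1 had 11.6%. In Th1-annotated cells Trbv13-1 led in all 6 mice, with 19.8% to 43.9%. It led in 0 of these 6 mice in Treg-annotated cells. UMIs of a cell are not independent draws, and no clone was identified from these values.

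The first genotype comparison asked whether the share of Tfh-annotated cells among CD4 T cells differed between KO and WT mice. It was 28.2%, 30.9%, 34.7% and 26.5% in KO replicates 1 to 4 and 17.1%, 23.2% and 26.6% in WT replicates 1 to 3. The mean was 30.1% ± 3.58 (SD, n = 4) against 22.3% ± 4.79 (SD, n = 3), and the groups overlapped because WT replicate 3 lay above KO replicate 4. A two-sided exact permutation test over 35 divisions of the mice gave p = 0.114 (0.429 adjusted over the 5 CD4 annotations), where the smallest p that the design allows is 0.0571, so that no share could pass 0.05. The other CD4 annotations had adjusted p of 0.429 to 0.686 in the same exact test. Without WT replicate 1 the difference of 7.76 points fell to 5.17 points (exact permutation p = 0.267). As a share of all T cells it was 10.1% ± 2.12 in KO and 10.2% ± 4.45 in WT mice (exact permutation p = 1), and the sign of this difference depended on the mice: leaving out 1 mouse at a time, an alternative added after the data were seen, gave -2.34 (without WT replicate 1) to 2.11 points (without WT replicate 2). As a share of all sorted cells it was 5.68% ± 0.259 in KO and 2.95% ± 2.19 in WT mice, with no overlap (exact permutation p = 0.0571, the smallest allowed). WT replicate 1 had 0.613% there, and without it the difference of 2.73 points fell to 1.56 points (exact permutation p = 0.133). A lower share of one annotation cannot be told apart from a higher share of another.

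**Figure D5:**
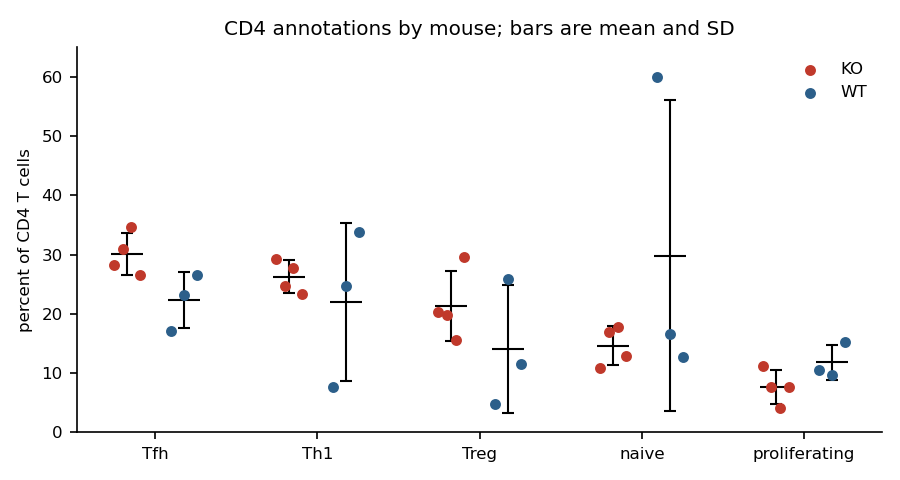
Points are mice (red 4 KO, blue 3 WT), the vertical axis is the percent of a mouse's CD4 T cells, and black marks are the mean and SD. Tfh lies at 26.5% to 34.7% in KO and 17.1% to 26.6% in WT mice, and WT replicate 1 stands apart with 60% naive cells.

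Expression within Tfh-annotated cells was then compared between 4 KO and 2 WT mice. In edgeR's quasi-likelihood test 1 of 8760 genes (0.0114%) passed an adjusted p under 0.05, the predicted gene Gm6969, and DESeq2 called 1. An unadjusted p under 0.05 was reached by 373 genes in edgeR. The p-values measure the spread between mice, and 2 WT mice give little information on it.

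Gm6969 was lower in KO mice by a log2 change of -2.77 (SE 0.30, edgeR adjusted p = 0.00122). Gm6969 reached 6.39, 18.2, 8.83 and 19.5 CPM in the KO mice and 96.8 and 94.3 CPM in the WT mice in Tfh-annotated cells, and the groups did not overlap. Of its UMIs 40.6% lay in values that were not whole, so its counting is uncertain. Th1-annotated cells showed the same split, with 5.22, 12.9, 8.78 and 12.1 CPM in the KO mice and 101 and 104 CPM in the WT mice. With WT replicate 1 admitted by a minimum of 10 cells edgeR called 0 genes (333 at an unadjusted p under 0.05). Gm6969 itself had an edgeR adjusted p of 0.9997 there, and the smallest, 0.213, belonged to another gene. The levels given here leave WT replicate 1 out, so the split rests on 2 WT mice. With genes of whole values alone edgeR called 0 (310 at an unadjusted p under 0.05), but Gm6969 was not among the genes tested there.

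The next 4 genes by p did not pass: Trav12-2 (3.54, adjusted p = 0.443 in edgeR), Cd200 (-1.23, 0.443), Spata6 (1.23, 0.662) and Zfp36l2 (0.88, 0.662). Cd200, an inhibitory ligand of follicular helper cells, had 104, 84.0, 73.6 and 64.2 CPM in the KO mice and 146 and 232 CPM in the WT mice, which do not overlap. Over 14 alternatives its adjusted p in edgeR or DESeq2 lay between 2.60e-05 and 1.00, and it passed in 2. In Tfh-annotated cells Zfp36l2 was measured at 737, 865, 1089 and 802 CPM in the KO mice and 459 and 486 CPM in the WT mice; the gene encodes a protein that promotes decay of cytokine transcripts.

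Of the given markers Cd4, Tcf7 and Bcl6 were tested and did not pass, and Cxcr5 was below the filter on low counts. The log2 change was 0.02 (SE 0.22) for Cd4, 0.33 (SE 0.33) for Tcf7 and -0.15 (SE 0.51) for Bcl6, with an edgeR adjusted p of 1.00 for each. Il21 had -0.40 (SE 0.40) and Ifng -0.80 (SE 0.65), also at 1.00. With 0.0114% of all genes called, no list had a called member, which says nothing particular about the lists. Medians were 0.17 for 13 follicular helper transcription factors, -0.32 for 15 receptors and costimulators and -0.61 for 3 cytokines, beside 0.01 over all genes. The 15 measured proliferation genes had the lowest median among lists of 10 or more, -0.53, with 12 lower in KO mice and 4 at an unadjusted p under 0.05, beside 48.9% of all genes lower and 373 of 8760 at such a p. The G2/M share was 2.67%, 5.32%, 6.41% and 9.44% in the KO mice and 5.43% and 13.2% in WT replicates 2 and 3. Dissociation stress genes had a median of 0.26, with 15 of 16 higher in KO mice and 0 called.

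Whether the genotype difference in Tfh-annotated cells departed from that in each other annotation was tested by an interaction in edgeR with 1 term per mouse. 8 of 9457 genes (0.0846%) were called against Th1, 7 of 8895 (0.0787%) against Treg and 0 of 7525 against naive-annotated cells, where 311 genes had an unadjusted p under 0.05. Of these 15 genes, 7 were receptor or immunoglobulin variable genes, whose use differs between clones.

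Against Th1 the others were Nr4a3, Kdm6b, Csf2 and the low gene Mest. Nr4a3 exceeded Th1 by 0.47 on average in KO and by 1.26 in WT mice (interaction -0.83, SE 0.15, adjusted p = 0.00695), and Kdm6b by 0.72 and 1.83 (-1.23, SE 0.24, edgeR adjusted p = 0.00955). Csf2 differed from Th1 by 0.00 in KO and 1.08 in WT mice (-1.04, SE 0.18, edgeR adjusted p = 0.0168). The level of Csf2 in Tfh-annotated cells was 108, 338, 174 and 93.4 CPM in the KO mice and 417 and 489 CPM in the WT mice, and 119, 285, 131 and 134 CPM in the KO mice and 182 and 246 CPM in the WT mice in Th1-annotated cells. The KO and WT values did not overlap in Tfh-annotated cells but did in Th1-annotated cells.

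Against Treg they were Tnfsf11, Dusp14, Dnajb1 and Ube2c. Tnfsf11 exceeded Treg by 3.23 in KO and 4.86 in WT mice (-1.73, SE 0.34, edgeR adjusted p = 0.0387), and Dusp14, a phosphatase, by 0.53 and 1.54 (-1.20, SE 0.23, edgeR adjusted p = 0.0257). The heat shock cochaperone Dnajb1 had -0.15 and 0.50 (-0.64, SE 0.12, edgeR adjusted p = 0.0199). Ube2c, of mitosis, had -1.07 and 1.10 (-2.57, SE 0.46, edgeR adjusted p = 0.0199). Each gene described here lost the call in some of 7 alternatives: Nr4a3, Kdm6b and Csf2 were called in 4, Mest in 3 of 6, Ube2c in 4, Dnajb1 and Dusp14 in 3 and Tnfsf11 in 2. Without WT replicate 2 the count fell to 3 against Th1, of which 1 was among the 8 called with all mice, and to 2 against Treg, and without KO replicate 3 it was 0 against Treg.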

How the data were processed

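Per the labels' protocols, 7 libraries (1 per mouse) were made with the 10x 5-prime kit. FastQC 0.11.5, STAR 2.7.10a, STARsolo and build mm10 are named in the submitters' processing notes. How cells were filtered and named, how doublets were treated and which gene models were used is not given in the sources used here. No doublets were removed for the values below. The deposited matrix holds expected counts, that is UMIs per gene (55491 rows) and cell, not scaled; in Tfh-annotated cells 8.44% of values above 0 were not whole (tolerance 1e-06), carrying 7.14% of the UMIs. The deposited cell table gives, as the authors computed them, each cell's count of detected genes and its percent of mitochondrial and of ribosomal UMIs.

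UMIs were summed per mouse and annotation in Python 3.11.15 (numpy 2.4.6, scipy 1.17.1). The design had assumed whole counts, so the sums were rounded for edgeR. Mice with fewer than 20 cells of an annotation were left out (WT replicate 1 for Tfh). Annotations were compared by differences of log2(CPM + 5) within mice, a scale that understates changes of low genes, with no test. Genes needed a mean of at least 10 CPM over the summed libraries of both annotations together. Genotype was tested in edgeR 4.0.16 (TMM, filterByExpr, robust quasi-likelihood, Benjamini-Hochberg adjustment over all genes tested, threshold 0.05) and, as an alternative, DESeq2 1.42.0. Scripts were tested on simulated data. Shares were compared by exact permutation tests, two-sided. Promoters came from RefSeq (GRCm38.p6).

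Named are the given markers, the members of the chosen lists that a result turns on (the rest are given by counts), the 8 most changed genes per direction and comparison, genes past the rule against all 3 annotations, the called genes or, where fewer than 3 were called, the 5 with the lowest p, and Siglece and Sall1. Other genes, such as Kdm6b, Itga1 and Slc35a5, and which list members to describe were chosen after their values were seen. The members, lists and tests were chosen with earlier results of these data known.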

Additional observations from a re-analysis of the deposited data

Results flagged for a closer look

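Among 42 groups of 4 KO values checked for a mouse far from the others, 3 held one, and chance gives about 1 in 20. KO replicate 1 lay far above the other KO mice for Gzmb at 681 CPM and for Prf1 at 367 CPM in Tfh-annotated cells. Bace2 was far above the other KO values at 32.5 CPM in 1 KO mouse.

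The KO against WT difference of 15 genes departed between Tfh-annotated cells and another annotation by the edgeR interaction. Against Th1 the log2 interaction was -1.04 for Csf2, -4.09 for Igkv1-110, -1.23 for Kdm6b, -6.68 for Mest, -0.83 for Nr4a3, -3.15 for Trav4-4-dv10, 1.37 for Trbv20 and 5.32 for Trbv29. Igkv1-110 had UMIs in 2 of 6 mice, and 520 of them in Th1-annotated cells of KO replicate 4. Against Treg it was -0.64 for Dnajb1, -1.20 for Dusp14, -1.73 for Tnfsf11, -4.50 for Trav13-1, -5.66 for Trav13-2, 5.69 for Trav9-1 and -2.57 for Ube2c.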

How the results depend on the processing

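Genes past the fold rule numbered 22 against Th1, 404 against Treg and 451 against naive-annotated cells. A minimum of 50 CPM gave 12, 198 and 208, and a 4-fold rule gave 3, 88 and 73. Against Th1 a pseudocount of 1 gave 38, and leaving out cells with CD8 transcripts, an alternative added after the data were seen, gave 12. Leaving out each mouse gave 21 to 23 against Th1 (16 to 20 of the 22 genes shared, 16 without WT replicate 2), 400 to 436 against Treg and 368 to 547 against naive. The genotype test in Tfh-annotated cells called 1 gene, and 31 without a filter on low counts. It called 0 with a minimum of 10 cells and 0 with genes of whole values, a setting that leaves out Gm6969. Leaving out a KO mouse gave 1 to 4 called genes (4 without KO replicate 4). The interactions called 21, 28 and 5 genes without the filter against Th1, Treg and naive, and 3 to 15, 0 to 10 and 0 to 5 when a mouse was left out. The share of CD4 T cells differed by 7.76 points and the share of all T cells by -0.11 points. The markers' shares depended on depth: Cd4 71.6% and 73.0%, Tcf7 6.57% and 6.89%, Bcl6 6.68% and 9.68%, and Il21 6.68% and 6.89% at 3000 UMIs and unthinned. Signs of uncalled genotype changes turned for Tcf7 (-0.68 with a minimum of 10 cells) and Cd4 (-0.00973 with the same number of cells per mouse). Leaving out each mouse gave -0.30 to 0.46 for Cd4 and -0.69 to 0.99 for Bcl6. The cause of these shifts was not tested.

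A fit with the replicate number as a block called 47 genes. Among the 6 mice of that fit only replicates 2 and 3 occur in both genotypes. The deviations of same-numbered mice correlated at -0.07 and -0.10, but with 2 WT mice the deviations mirror each other, so this check cannot tell whether the number pairs the mice, and the labels do not say so. For the share of CD4 T cells the block on replicates 1 to 3 gave a difference of 8.96 points (11.1, 7.72 and 8.09 points within the 3 numbers, exact permutation p = 0.25, the smallest that 3 pairs allow).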
